A study of Mus musculus with 6 samples.

Results

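The genes described here encode the cadherins, the protocadherins and the catenins that bind cadherins. They were taken from the platform annotation by symbol: every probe of a gene named Cdh, Ctnna or Ctnnd plus a number, or with a name that starts with Pcdh. This gave 160 of the 45281 probes of the array, which stand for 93 genes. The rule takes in the alpha-catenins and delta-catenins but not beta-catenin (Ctnnb1), plakoglobin (Jup) or alpha-catulin (Ctnnal1), which are given with the partner genes further on. The mutant group was 3 arrays of sciatic nerve from Dicer mutant mice that carry P0-Cre, at postnatal day 14. The control group was 3 arrays of sciatic nerve from littermates of the same age. The mutant label adds "F or N" after Dicer, which the sources used here do not explain, so the alleles of each mutant array are not known, and the labels do not give the Cre or Dicer status of the littermates. In P0-Cre mice the promoter of the myelin protein zero gene drives Cre in the Schwann cell lineage, while other cells of the nerve are not its target. Both sexes are named for every array, and the sources do not say if animals were pooled for an array. The spread behind each p-value is thus that of these samples and may in part be technical, and the number of arrays limits the precision.

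Cadherins are calcium-dependent adhesion proteins that bind like molecules on the neighbouring cell. Their tails bind p120 (delta-catenin) and beta-catenin, and beta-catenin binds alpha-catenin, which links the junction to actin. In peripheral nerve, E-cadherin joins the layers of a single Schwann cell to each other at paranodes and incisures, and cadherin-19 is known, in rat, from Schwann cell precursors. Protocadherins have a different tail. The clustered alpha, beta and gamma protocadherins lie in tandem in the genome and give neurons combinations of surface labels, while the non-clustered ones are encoded by separate genes. Dicer cuts microRNA precursors into mature microRNAs.

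Levels are on the deposited, log2-like scale, and a difference is the mutant mean minus the control mean. A probe was called higher or lower at a limma adjusted p under 0.05. Only the 18420 probes with the highest mean over the 6 arrays were tested, and 41 member probes of 32 genes were among them. The other 119 probes lay at means of 8.04 to 8.33, at or around the array's median of 8.24, and 61 genes had no tested probe. At the limit of 8.34, the nearest member probes left out were those of Pcdhb17 and Pcdh9, both at a mean of 8.33, and the nearest kept were those of Pcdhgc3 and Pcdhb8, both at 8.34. Each gene is represented by its tested probe with the highest mean.

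Of the 32 tested genes, 8 were higher in mutant nerve, 4 were lower and 20 were not called. The share called was 37.5%, and among all 10273 tested genes it was 39.6%, with 22.0% higher and 17.6% lower. The members' share was thus close to that of all genes. By probe, 12 of the 41 were higher and 4 were lower, against 35.8% called of all tested probes, with 19.9% higher and 15.9% lower. The groups did not overlap for 15 of the 32 genes, against 55.2% of all genes. The member genes' median difference was 0.01, and that of all tested genes was 0.01. A gene can also pass the filter through 1 group alone. Control means of 4 genes lay under the limit, of which 2 (Ctnna2 and Pcdha6) were called, and mutant means of 3 genes did, of which 1 (Cdh3) was called. Both means were above it for 25 genes, of which 9 were called.

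The classes of the family held 1 to 7 tested genes each, too few to compare, and their counts are given one by one. In bulk nerve, fewer cells of a type and less RNA per cell cannot be told apart, which holds for every difference given here.

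**Figure D1:**
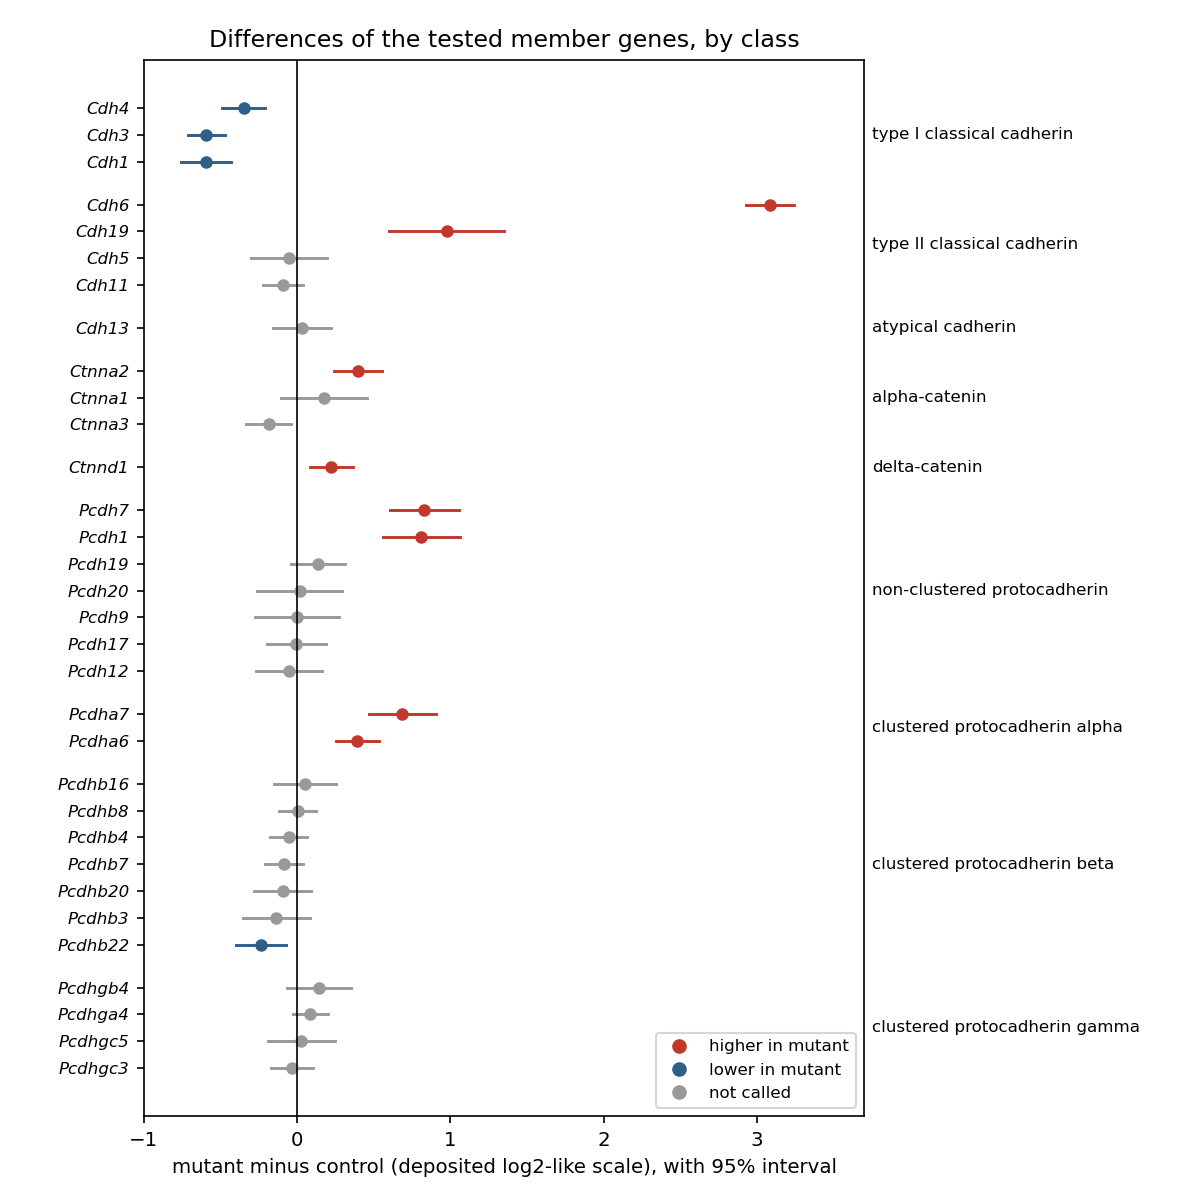
Differences between mutant and control (mutant mean minus control mean, deposited log2-like scale) for the 32 tested genes, grouped by class, with 95% confidence intervals from limma. Red marks genes higher in mutant, blue genes lower in mutant and grey genes not called. Cdh6, at 3.09, lies far to the right of all others.

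Upstream sequences were read for genes that were called higher in every setting in which they were tested. Of 7 such genes, 3 had a sequence in the RefSeq table that could be printed here: Cdh6, Pcdh7 and Ctnna2. Each run is the 250 bases before the annotated start, read 5′ to 3′ on the gene's strand (assembly GRCm38.p6). The positions are chr15:13173676-13173925 on the minus strand for Cdh6, chr5:57717831-57718080 on the plus strand for Pcdh7, and chr6:77979668-77979917 on the minus strand for Ctnna2. Capitals mark matches to CANNTG, the E-box that Zeb, Snail, Twist and Tcf4 proteins bind, and to ACAAAG or its reverse complement CTTTGT, a core bound by Sox proteins.
Cdh6: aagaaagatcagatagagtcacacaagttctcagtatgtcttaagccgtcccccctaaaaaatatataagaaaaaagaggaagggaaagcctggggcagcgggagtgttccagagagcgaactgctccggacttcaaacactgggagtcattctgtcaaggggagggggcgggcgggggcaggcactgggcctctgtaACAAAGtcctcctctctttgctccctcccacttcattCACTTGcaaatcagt
Pcdh7: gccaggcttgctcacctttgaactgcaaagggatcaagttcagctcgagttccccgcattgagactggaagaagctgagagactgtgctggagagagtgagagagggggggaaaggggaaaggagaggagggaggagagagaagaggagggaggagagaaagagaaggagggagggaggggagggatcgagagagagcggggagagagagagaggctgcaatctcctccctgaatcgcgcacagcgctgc
Ctnna2: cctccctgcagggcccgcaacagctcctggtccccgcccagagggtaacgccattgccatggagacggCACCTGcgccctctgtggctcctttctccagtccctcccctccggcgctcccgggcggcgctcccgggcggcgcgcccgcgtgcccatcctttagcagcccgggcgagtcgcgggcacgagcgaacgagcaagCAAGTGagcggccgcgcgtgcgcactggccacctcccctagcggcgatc
The Cdh6 run holds ACAAAG, starting 52 bases before the gene's start, and CACTTG, starting 15 bases before it. The Ctnna2 run holds CACCTG at 182 bases and CAAGTG at 49 bases before the start. The Pcdh7 run holds neither motif. Matches were sought on both strands. CANNTG reads the same on both strands and occurs in 66.2% of 32851 listed promoters over the same 250 bases, and ACAAAG or CTTTGT occurs in 16.5% of them. A match is only a description of the letters. The genes were chosen by their calls in these same data, and shared regulation was not tested. Ctnna2 passed the filter through the mutant arrays alone, and its further probes were not called in a fit of all probes.

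Among the type II cadherins, which lack the binding motif typical of E-cadherin, Cdh6 and Cdh19 were higher in mutant nerve. Of 13 such genes on the array, 4 were tested. Cdh6, cadherin-6, is known from kidney tubule formation and from neural crest. It was at 11.85, 11.72 and 11.67 in the mutant arrays, against 8.60, 8.67 and 8.72 in the control arrays. The control arrays lay close to the dim end of the scale, and the groups were far apart. The difference was 3.09 (SE 0.066, limma adjusted p = 2.59e-06). Cdh6 was the only member of the 32 called with a difference of at least 1, the 2-fold threshold that the series states, while 5.57% of all tested genes passed both. Its difference was 3.03 to 3.12 over the 12 other settings.

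Cdh19 was at 10.65, 10.21 and 10.12 in the mutant arrays, against 9.26, 9.24 and 9.56 in the control arrays. The lowest mutant array was above the highest control array. The difference was 0.98 (SE 0.157, limma adjusted p = 0.00373), and a second probe gave 0.60 (SE 0.172, limma adjusted p = 0.0341). It passed the 2-fold threshold without control replicate 3, at 1.08, without mutant replicate 2, at 1.03, and without mutant replicate 3, at 1.08.

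The other tested type II genes were not called. Cdh5, VE-cadherin of endothelial cells, differed by −0.06 (SE 0.103, limma adjusted p = 0.717), with a 95% interval of −0.30 to 0.19. Cdh11, a cadherin of mesenchymal cells, differed by −0.09 (SE 0.0556, limma adjusted p = 0.247), with an interval of −0.22 to 0.04. Cdh11 was called lower with array weights, at −0.13 (limma adjusted p = 0.0382), and its adjusted p ran up to 0.511 over its alternatives. Second probes of both were not called. In the RefSeq gene order, Cdh6, Cdh9, Cdh10 and Cdh12 follow each other on chromosome 15, and Cdh7 is next to Cdh19 on chromosome 1. None of Cdh7, Cdh9, Cdh10 and Cdh12 had a tested probe.

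**Figure D2:**
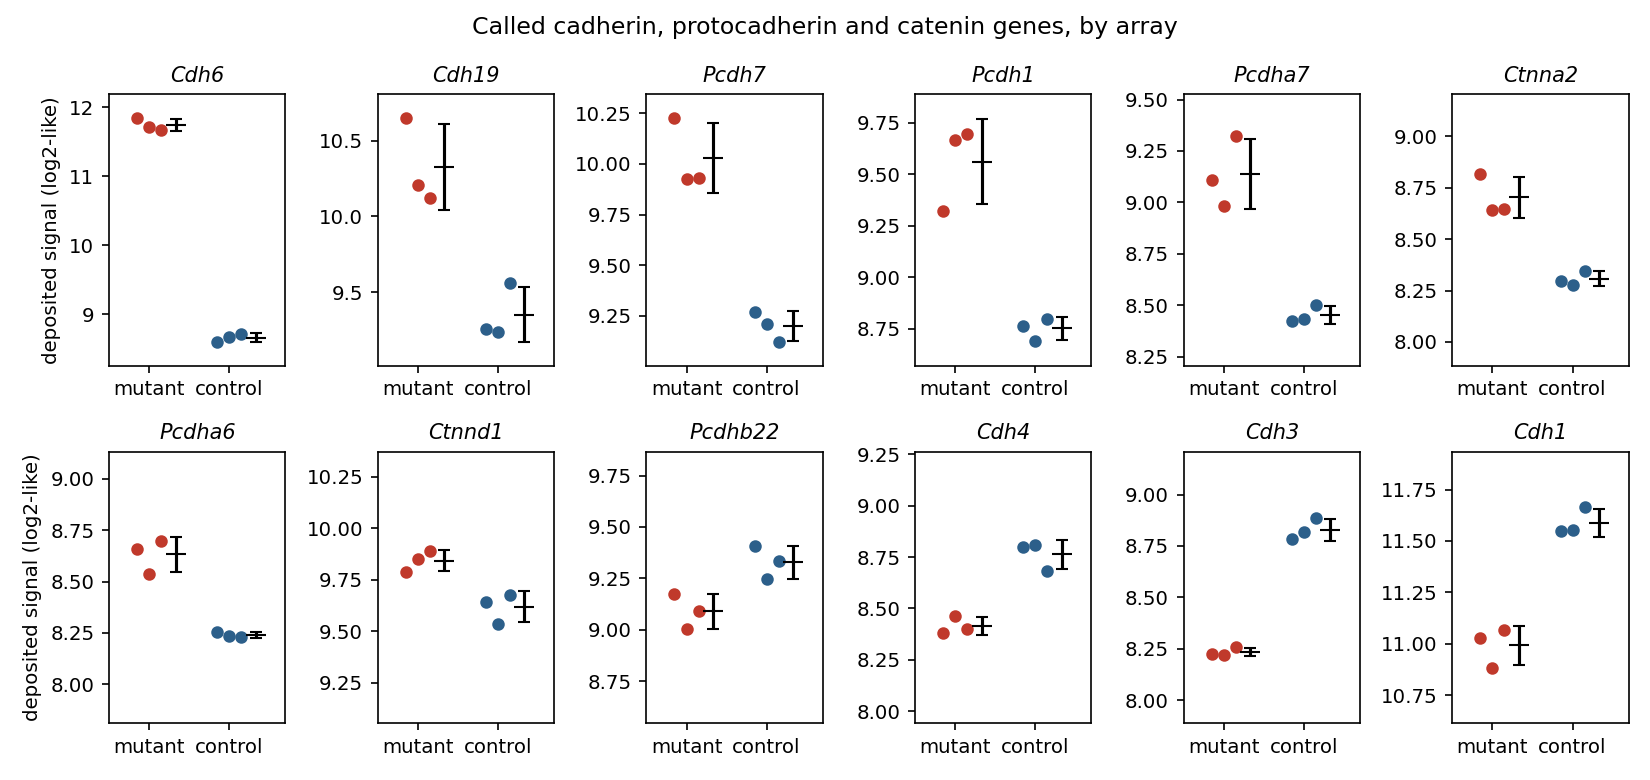
Deposited level (log2-like, vertical axes with separate ranges that do not start at 0) of the 12 called genes in each of the 3 mutant (red, left) and 3 control (blue, right) arrays; black marks give the mean and SD. In every panel the groups do not overlap, and Cdh6 has the widest gap.

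All 3 tested type I cadherins fell in mutant nerve, of which Cdh3 passed the filter through the control arrays alone. Cdh1, E-cadherin, was at 11.03, 10.88 and 11.07 in the mutant arrays, against 11.55, 11.55 and 11.67 in the control arrays. Every mutant array was below every control array. The difference was −0.60 (SE 0.0688, limma adjusted p = 0.000905). The dimmer second probe of Cdh1 gave −0.03 (SE 0.0717, limma adjusted p = 0.747), with means of 8.41 in mutant and 8.44 in control, so the probes disagree.

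Cdh3, P-cadherin of placenta and skin, was at 8.22, 8.22 and 8.26 in the mutant arrays, against 8.78, 8.82 and 8.88 in the control arrays. The mutant arrays lay at the array's median, and the groups were well apart. The difference was −0.59 (SE 0.0509, limma adjusted p = 0.000243). Cdh4, R-cadherin, first described in retina, was at 8.38, 8.46 and 8.40 in the mutant arrays, against 8.80, 8.81 and 8.68 in the control arrays. It differed by −0.35 (SE 0.0579, limma adjusted p = 0.00413), again with no overlap. Cdh3 and Cdh1 are next to each other on chromosome 8.

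Cdh2, N-cadherin, was not tested: its brighter probe had means of 8.34 in mutant and 8.31 in control, both under the filter's limit. Cdh15, the M-cadherin of muscle, was not tested either. Among the atypical cadherins, only Cdh13, which is anchored to the membrane by a lipid and has no tail, was tested. It differed by 0.03 (SE 0.0789, limma adjusted p = 0.790), and its second probe by −0.08. With limma, 0 of 1 atypical gene was called, and 0 had an unadjusted p under 0.05.

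Among the catenins, Ctnna2 and Ctnnd1 rose. Ctnna2, the alpha-catenin of neurons, was at 8.82, 8.64 and 8.65 in the mutant arrays, against 8.29, 8.28 and 8.35 in the control arrays. The groups were apart, and the control mean lay under the filter's limit. The difference was 0.40 (SE 0.0652, limma adjusted p = 0.00403). Further probes of Ctnna2, left out by the filter, differed by 0.001, 0.020 and 0.006. They were not called in a fit of all probes, so the call rests on the tested probe. Ctnna1, the alpha-catenin of most cells, was at 14.56, 14.09 and 14.20 in the mutant arrays, against 14.10, 14.12 and 14.11 in the control arrays. Mutant replicates 1 and 3 lay above the controls and mutant replicate 2 just below them, and the difference of 0.17 had a 95% interval of −0.11 to 0.46 (SE 0.118, limma adjusted p = 0.297).

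Ctnna3, the alpha-catenin of heart and testis, was lower in each mutant array than in each control array, but was not called. It differed by −0.19 (SE 0.0617, limma adjusted p = 0.0555). It was called without control replicate 1, at −0.24 (limma adjusted p = 0.0359), and its adjusted p ran from 0.0227 to 0.168 over its alternatives.

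Ctnnd1, p120-catenin, holds cadherins at the cell surface. It was at 9.79, 9.85 and 9.89 in the mutant arrays, against 9.64, 9.53 and 9.68 in the control arrays. The gap between the groups was narrow. The difference was 0.22 (SE 0.0600, limma adjusted p = 0.0274). That call was kept without control replicate 3 or mutant replicate 1, but not without any other array. The adjusted p was 0.0724 without control replicate 1, 0.0881 without control replicate 2, 0.0784 without mutant replicate 2 and 0.0728 without mutant replicate 3. Over the alternatives the adjusted p ran from 0.00348 to 0.0881.

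Of 7 tested non-clustered protocadherins, 2 rose and 5 were not called. Pcdh7, known from brain and heart, was at 10.23, 9.93 and 9.93 in the mutant arrays, against 9.27, 9.21 and 9.12 in the control arrays. The difference was 0.83 (SE 0.0953, limma adjusted p = 0.000891), and a dimmer second probe gave 0.22 (limma adjusted p = 0.0127). The lowest mutant array exceeded the highest control array by a wide margin.

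Pcdh1, a protocadherin known from airway epithelium, was at 9.32, 9.67 and 9.69 in the mutant arrays, against 8.76, 8.69 and 8.80 in the control arrays. It differed by 0.81 (SE 0.106, limma adjusted p = 0.00153), and its second probe by 0.56 (limma adjusted p = 0.00332). Again the groups did not overlap. Pcdh9, Pcdh12, Pcdh17, Pcdh19 and Pcdh20 had differences of −0.05 to 0.13. Pcdh19, whose gene is linked to epilepsy in human, had the highest of these, 0.13 (SE 0.0742, limma adjusted p = 0.207).

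The clustered protocadherins were mostly dim. Of 54 genes, 13 were tested, and 58 of the 93 members lie on chromosome 18. Both tested alpha protocadherins rose, of which Pcdha6 passed the filter through the mutant arrays alone. Pcdha7 was at 9.11, 8.98 and 9.32 in the mutant arrays, against 8.42, 8.43 and 8.50 in the control arrays. Its difference was 0.69 (SE 0.0911, limma adjusted p = 0.00164), and its second probe gave 0.28 (limma adjusted p = 0.0110). Pcdha6 was at 8.66, 8.54 and 8.70 in the mutant arrays, against 8.26, 8.24 and 8.23 in the control arrays. The groups of both genes were apart, and the control arrays of Pcdha6 lay at the array's median. The difference of Pcdha6 was 0.39 (SE 0.0586, limma adjusted p = 0.00277). Further probes, left out by the filter, differed by −0.04 and −0.02 for Pcdha6 and by 0.03 and −0.002 for Pcdha7. These further probes were not called in a fit of all probes. Clustered protocadherins resemble each other in sequence, and the probes' binding to more than 1 of them was not tested.

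Of 7 tested beta protocadherins, Pcdhb22 was lower and 6 were not called. Pcdhb22 was at 9.17, 9.00 and 9.09 in the mutant arrays, against 9.41, 9.25 and 9.33 in the control arrays. The groups were narrowly apart. The difference was −0.24 (SE 0.0683, limma adjusted p = 0.0346). The adjusted p was 0.119 without control replicate 1, 0.0951 without control replicate 3, 0.104 without mutant replicate 2 and 0.0726 without mutant replicate 3, and ran from 0.00162 to 0.119 over its alternatives. The other 6, Pcdhb3, Pcdhb4, Pcdhb7, Pcdhb8, Pcdhb16 and Pcdhb20, differed by −0.14 to 0.05.

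None of the 4 tested gamma protocadherins was called by limma, and 0 had an unadjusted p under 0.05. Pcdhga4, Pcdhgb4, Pcdhgc3 and Pcdhgc5 differed by −0.03 to 0.14. Pcdhga4 was higher in every mutant array than in any control array, by 0.09 on average (SE 0.0470, limma adjusted p = 0.202). Pcdhgb4 was called without mutant replicate 1, at 0.24 (limma adjusted p = 0.0140), and its adjusted p ran from 0.00760 to 0.516 over its alternatives.

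The 61 genes with no tested probe divide as follows. Type I cadherins lost 2 (Cdh2 and Cdh15), type II cadherins 9 (Cdh7, Cdh8, Cdh9, Cdh10, Cdh12, Cdh18, Cdh20, Cdh22 and Cdh24) and atypical cadherins 4 (Cdh16, Cdh17, Cdh23 and Cdh26). The delta-catenin Ctnnd2 and 4 non-clustered protocadherins (Pcdh8, Pcdh10, Pcdh15 and Pcdh18) were left out. So were 10 alpha, 15 beta and 16 gamma protocadherins. A low level on this scale limits the difference that can be seen, and it does not show that the gene was silent.

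A fit of all 45281 probes, in which 14.1% were called, also gave calls for 10 of the 119 left-out member probes, 8 higher and 2 lower. Of all probes left out by the filter, 2.00% were called in that fit. Ctnnd2, the neural delta-catenin, had 3 of the 8. Its brightest probe was at 8.37, 8.55 and 8.46 in the mutant arrays, against 8.10, 8.10 and 8.07 in the control arrays, a difference of 0.37 (limma adjusted p = 0.00591). Cdh20, a type II cadherin, was at 8.43, 8.40 and 8.52 in the mutant arrays, against 8.16, 8.15 and 8.12 in the control arrays, a difference of 0.30 (limma adjusted p = 0.00336). In both genes the controls lay under the array's median of 8.24. The others higher were probes of Pcdhac2, Pcdhga7, Pcdhgb2 and Cdh2, by 0.12 to 0.18. Both lower probes were further probes of Cdh3, with differences of −0.32 and −0.08.

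**Figure D3:**
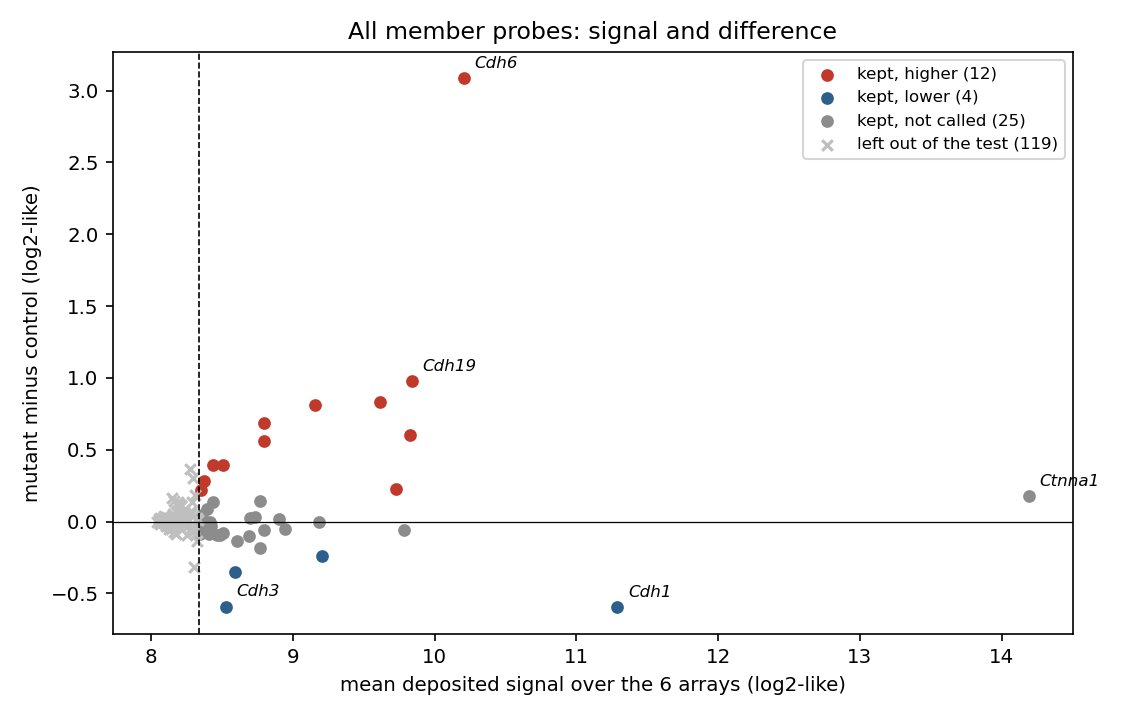
Mean deposited level over the 6 arrays (horizontal axis, log2-like) against the difference between mutant and control (vertical axis, mutant minus control) for all 160 member probes. The dashed line is the filter's limit at 8.34; the 119 probes left of it, drawn as crosses, were left out of the test and lie between −0.32 and 0.37.

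The partner genes, listed with earlier results of these data known, were described in the same fit. The counts of each partner list stand beside the share of all tested genes called, 22.0% higher and 17.6% lower. Of 23 tested adherens junction partners, 10 rose and 4 fell, with a median difference of 0.14 against 0.01 over all tested genes. Ctnnb1, which encodes beta-catenin, was not called, with a difference of 0.13 (SE 0.142, limma adjusted p = 0.524). Ctnnal1, which encodes alpha-catulin, a relative of the alpha-catenins, was at 12.48, 12.23 and 12.34 in the mutant arrays, against 14.43, 14.38 and 14.42 in the control arrays. It fell by 2.06 (SE 0.0735, limma adjusted p = 7.94e-06), although a dim second probe was not called, at −0.13. The other lower genes were Ctnnbip1, Tjp1 and Plekha7, named because they were called.

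Magi1, a junction scaffold, was at 10.25, 10.11 and 10.31 in the mutant arrays, against 9.34, 9.28 and 9.25 in the control arrays. It rose by 0.93 (SE 0.0665, limma adjusted p = 0.000115). Actn1, an actin crosslinker, rose by 0.91 (SE 0.189, limma adjusted p = 0.0104). Iqgap1, a scaffold for actin regulators, rose by 0.90 (SE 0.202, limma adjusted p = 0.0144). Without control replicate 3, 6 partners rose, and Iqgap1 was not called, at 0.76 (limma adjusted p = 0.0529). Its adjusted p ran from 0.00116 to 0.0529 over its alternatives. With the replicate number as a block, Pkp4 and Nectin2 were no longer called (adjusted p = 0.0538 and 0.0530) and Lima1 was, at 0.43 (adjusted p = 0.00723).

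Desmosomes are a second kind of cadherin junction. Of 15 such genes on the array, 3 were tested (Dsg2, Ppl and Pkp2), and limma called 0, with 0 at an unadjusted p under 0.05. Their differences were −0.08, −0.04 and −0.01. Of 6 other cadherin superfamily genes tested, Celsr1, a planar polarity receptor, rose by 0.41 (SE 0.0890, limma adjusted p = 0.0124). The calsyntenin Clstn1 fell by 0.52 (SE 0.115, limma adjusted p = 0.0134) and Clstn3 fell by 0.22 (SE 0.0487, limma adjusted p = 0.0141). Without control replicate 1 none of these 3 was called, at 0.38, −0.49 and −0.20, and without control replicate 2 Clstn1 and Clstn3 were not, at −0.45 and −0.22. Over the alternatives the highest adjusted p was 0.0530 for Celsr1, 0.0559 for Clstn1 and 0.0616 for Clstn3, and the lowest 0.00294, 0.00433 and 0.00214. Celsr2 was also called without mutant replicate 1 or 2, at 0.26 and 0.29, and Fat1 without mutant replicate 1, at −0.18.

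Among 23 tested genes of cadherin shedding and turnover, 6 rose and 5 fell, with a median difference of −0.11. Of all tested genes, 22.0% were higher and 17.6% lower. Furin, which cuts cadherin precursors into their mature form, was at 12.30, 12.51 and 12.70 in the mutant arrays, against 11.05, 11.16 and 10.92 in the control arrays. It rose by 1.45 (SE 0.113, limma adjusted p = 0.000167). Pcsk6, a related convertase, fell by 1.26 (SE 0.0731, limma adjusted p = 5.14e-05). The related convertases thus moved in opposite directions. Aph1a counted as not called through its brightest probe, at −0.11 (limma adjusted p = 0.149). Its dimmer second probe was called lower, at −1.14 (SE 0.0599, limma adjusted p = 3.22e-05), so the probes disagree in size and call.

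Mmp14, a membrane-bound metalloprotease, rose by 1.17 (SE 0.0928, limma adjusted p = 0.000180). The sheddase Adam17 rose by 0.91 (SE 0.103, limma adjusted p = 0.000852), whereas Adam10, the sheddase best known for E-cadherin and N-cadherin, was not called, at −0.13 (SE 0.0719, limma adjusted p = 0.220). Without mutant replicate 1, Adam10 was called, at −0.19, and 9 genes of this list were lower. With array weights, Adam10 was called too, at −0.20 (limma adjusted p = 0.0108), and 10 genes of the list were lower and 6 higher. Without control replicate 2, control replicate 3 or mutant replicate 2, 3 were lower. With the replicate number as a block, Mmp9 was no longer called (adjusted p = 0.0538) and Psenen was, at −0.84 (adjusted p = 0.0399). Psenen was also called lower with array weights, with an intensity trend and without mutant replicate 1 or 3. Its limma adjusted p ran from 0.00257 to 0.193 over its alternatives.

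Of 16 tested transcription regulators of cadherin genes, 4 rose and 1 fell, against 22.0% higher and 17.6% lower among all tested genes. Zeb1, a repressor of Cdh1 in other tissues, was at 12.11, 11.76 and 11.66 in the mutant arrays, against 10.98, 10.80 and 10.75 in the control arrays. It rose by 1.00 (SE 0.128, limma adjusted p = 0.00142), and a dim second probe was not called, at 0.09. Esrp1, an epithelial splicing factor, fell by 0.99 (SE 0.0633, limma adjusted p = 7.41e-05).

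Tcf4, an E-box binding factor, rose by 0.65 (SE 0.129, limma adjusted p = 0.00859), and Tfap2a, a neural crest factor, rose by 0.47 (SE 0.0539, limma adjusted p = 0.000888). The fourth higher gene was Smchd1, which takes part in silencing the clustered protocadherins. It rose by 0.39 (SE 0.112, limma adjusted p = 0.0348), and was not called without control replicate 1, 2 or 3, with adjusted p of 0.0887, 0.111 and 0.0888, or without mutant replicate 2, with 0.0609. Its adjusted p ran from 0.00295 to 0.111 over its alternatives. The probes that represent the other repressors, Snai1, Snai2, Snai3, Twist1, Twist2 and Zeb2, were not called and differed by −0.19 to 0.04. A dimmer further probe of Zeb2 was called lower, at −0.22 (SE 0.0536, limma adjusted p = 0.0186), and with array weights the representing probe was too, at −0.66 (limma adjusted p = 0.0160). Snai3 was called lower with array weights, at −0.21 (limma adjusted p = 0.00705), and with an intensity trend, at −0.16 (limma adjusted p = 0.0438). Over the alternatives the adjusted p ran from 0.0160 to 0.818 for Zeb2 and from 0.00705 to 0.197 for Snai3. Without mutant replicate 1, Foxc2 was also lower, at −0.32. With the replicate number as a block, Tcf12 and Ctcf were called higher (adjusted p = 0.0409 and 0.0407).

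**Figure D4:**
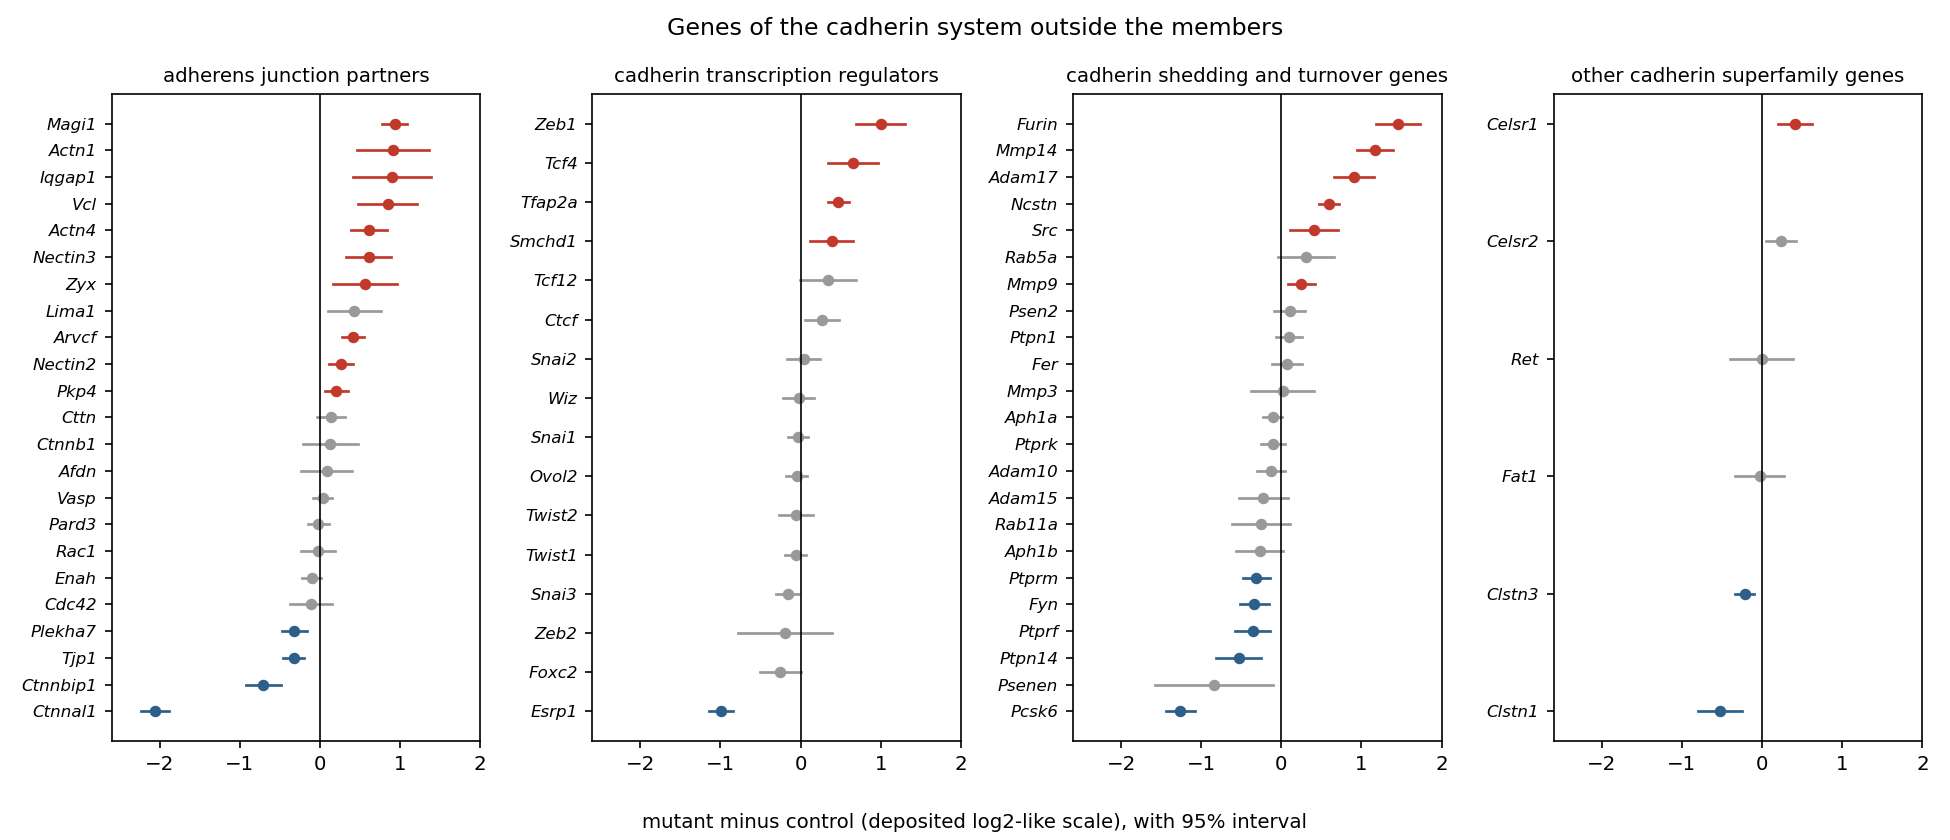
Differences between mutant and control (horizontal axes, mutant minus control, deposited log2-like scale) with 95% confidence intervals from limma for the tested genes of 4 lists outside the members. Red marks genes higher in mutant, blue genes lower in mutant and grey genes not called. Ctnnal1, at −2.06, and Furin, at 1.45, lie farthest out on either side.

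Cell type markers are given beside the share of all tested genes called, 22.0% higher and 17.6% lower. Of 8 tested Schwann cell markers, 5 were lower (Mag, Egr2, Mbp, Pmp22 and S100b) and 2 higher (Ngfr and Ncam1), and Sox10 was not called, at 0.04 (SE 0.0701, limma adjusted p = 0.734). Their summed level was 98.8 to 100.0 in the mutant arrays, against 103 to 104 in the control arrays. L1cam, Gfap and Foxd3 had no tested probe. Of 9 endothelial markers, 3 were lower (Cldn5, Egfl7 and Flt1) and 0 higher, at summed levels of 91.3 to 92.8 in the mutant arrays and 93.0 to 95.1 in the control arrays. The other 6 were not called. Pecam1, Tek, Eng and Tie1 differed by 0.25, 0.09, 0.03 and 0.003, and Esam and Emcn by −0.19 and −0.22. Kdr had no tested probe. Of 13 perineurial and fibroblast markers, 4 were higher (Lum, Col1a1, Itgb4 and Pdgfrb) and 1 lower (Gjb6), with sums of 161.7 to 165.5 in the mutant arrays and 159.3 to 161.6 in the control arrays.

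Of 11 macrophage and mast cell markers, 4 were higher (Cpa3, Cma1, Mcpt4 and Tpsb2) and 2 lower (Cd163 and Cd14), with sums of 108 to 111 in the mutant arrays and 106 to 107 in the control arrays. The 4 higher genes are mast cell genes and the 2 lower ones macrophage genes, so the sums pool cell types that differed in direction. The mast cell gene Kit was not called, at 0.06. The macrophage genes Adgre1, Csf1r, Aif1 and Mrc1 were not called either, at 0.23, 0.04, 0.30 and −0.002. Itgam had no tested probe. Skeletal muscle markers varied within both groups. Of 11, Myh1 was lower, and sums were 106 to 125 in the mutant arrays and 127 to 140.0 in the control arrays, with Myf5 and Pax7 not tested. Of 6 fat cell markers, Ucp1 was lower, with sums of 55.2 to 56.6 in the mutant arrays and 57.2 to 59.0 in the control arrays, and Plin1, Retn and Fabp4 were not tested. Of 2 neuron markers, limma called 0, with 0 at an unadjusted p under 0.05, and sums were 16.9 in all mutant arrays and 16.8 to 17.2 in the control arrays. Rbfox3, Tubb3, Snap25, Syt1, Nefl, Isl1 and Pou4f1 were not tested.

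Called markers, and some that were not called, are named here after their values were seen. Flt1 was not called without control replicate 1, control replicate 2, mutant replicate 2 or mutant replicate 3, with adjusted p of 0.115, 0.120, 0.105 and 0.0975, or without the filter, with 0.0948, and its adjusted p ran from 0.00184 to 0.120 over its alternatives. Without mutant replicate 1, 4 endothelial, 4 muscle, 3 perineurial or fibroblast and 2 fat markers were lower. With array weights, 5 endothelial, 3 muscle, 3 perineurial or fibroblast and 4 fat markers were lower, and 5 perineurial or fibroblast markers were higher. Without control replicate 3, 2 fat markers were lower, and without control replicate 1 or 2 the lower macrophage and mast cell markers numbered 1. With the replicate number as a block, 6 muscle and 3 fat markers were lower, Pecam1 was higher, at 0.25 (adjusted p = 0.0313), and Adgre1 was higher, at 0.23 (adjusted p = 0.0359). The part of these cell types in the differences of the cadherin genes was not tested.

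The 6 arrays shared 1 distribution of values. Correlations over the 18420 tested probes were 0.973 to 0.993 among mutant arrays, 0.992 to 0.995 among control arrays and 0.912 to 0.942 between the groups. Of 3 Dicer1 probes, 2 were tested. One was at 8.38, 8.45 and 8.34 in the mutant arrays, against 8.65, 8.63 and 8.50 in the control arrays (difference −0.20, SE 0.0630, limma adjusted p = 0.0458). The other was at 9.28, 9.10 and 9.13 in the mutant arrays, against 9.29, 9.17 and 9.13 in the control arrays (difference −0.02, SE 0.0734, limma adjusted p = 0.832). The place of the probes relative to the deletion is not known, so these values do not check the labels.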

How the data were processed

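Total RNA of sciatic nerve was measured on Illumina Mouse WG-6 version 2 arrays, 1 array per sample, 3 mutant and 3 control. The authors deposited normalized values whose range fits a log2 scale. Per the labels (the design text), normalization was by RMA and limma was used, and lumi 1.8.3 is named in the submitters' processing notes. A variance-stabilising transform could give a like range, and the sources do not settle which it was. If so, differences of dim probes are smaller here than the log2 fold. In the design text the samples are cultured cells, but title and labels give sciatic nerve, which was followed.

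The design text gives a present and absent filter that kept 18420 of 45281 probes. Its calls were not used here, and the 18420 brightest probes by their mean across the arrays were kept instead. Probes were named from the platform annotation, and all 160 member probes matched the RefSeq gene table of GRCm38.p6. Mutant and control were compared on the deposited values by lmFit and eBayes of limma 3.58.1 (R 4.3.3), with 2-sided tests and no other terms, and Benjamini-Hochberg adjustment took in all 18420 probes. The steps were tested on simulated data. All adjusted p-values in the text are limma's.

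The alternatives were no filter, a filter keeping 10000 probes, the replicate number as a block, an intensity trend, array weights, repeated quantile normalization, the median over all tested probes of a gene, and leaving out each array. Mutant and control arrays share the numbers 1 to 3 in their titles. Deviations from the group means correlated at 0.165, 0.155 and 0.224 for same-numbered arrays and at 0.0283 or less for the others. The labels do not state a pairing. Correlations this low do not settle it, since deviations within a group of 3 are not independent. The main fit left this possible pairing out, so its SEs, intervals and adjusted p-values treat the arrays as unpaired. Only the fit with the replicate number as a block used the numbers.

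The members, gene lists and tests were chosen with earlier results of these data known. Every tested member may be named. Of each partner list up to 4 called genes with the largest difference are named, or all where 3 or fewer were tested. The plan for each marker list was up to 3 of the genes with the highest mean. The called markers and some uncalled ones are named instead, so some bright uncalled markers are not named. Further genes are named after their values were seen, where a count was small, an alternative changed a call or the probes of a gene disagreed.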

Additional observations from a re-analysis of the deposited data

How the results depend on the processing

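Of the 12 called member genes, 10 kept their direction and their call in every fit that tested them, and Ctnnd1 and Pcdhb22 did not. With the replicate number as a block, 8 members were higher and 4 lower, 6287 probes were called, and 21 partner genes were higher and 13 lower. The block changed no member's call. Without the filter 13 members were higher, since dim probes were then tested. With 10000 probes, 5 were higher, 1 was lower and 4387 probes were called, since fewer genes were tested. Pcdhb22 was not called in either (adjusted p = 0.0510 and 0.0515), nor was Ctnnd1 with an intensity trend (0.0556). With array weights, 21 partner genes were lower, and the cause was not tested. The weights were 0.208, 4.64 and 0.629 for mutant replicates 1, 2 and 3, and 0.795 to 1.84 for the control arrays. Leaving out 1 array gave 7 to 9 members higher, 3 to 4 lower, 1 to 2 at least 2-fold, 4598 to 7502 probes called, 14 to 21 partner genes higher and 8 to 19 lower, with 19 without mutant replicate 1. The member differences that changed sign were all of uncalled genes. With array weights these were Pcdhb8 at −0.018, Pcdhgc3 at 0.0061 and Pcdh20 at −0.070. Leaving out 1 array gave ranges across 0 of −0.037 to 0.097 for Pcdhgc5, −0.10 to 0.082 for Pcdh9, −0.060 to 0.0085 for Pcdhgc3, −0.15 to 0.0071 for Pcdh12, −0.071 to 0.068 for Pcdh17, −0.17 to 0.024 for Cdh5, −0.043 to 0.10 for Cdh13, −0.024 to 0.019 for Pcdhb8, −0.080 to 0.11 for Pcdh20 and −0.031 to 0.11 for Pcdhb16. The median over all probes gave Cdh13 at −0.026, and smaller differences for Pcdha7 (0.48), Pcdh7 (0.52) and Cdh1 (−0.32). Nearness to the array's median limits what can be seen for the 61 untested genes.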
